A study of Mus musculus with 4 samples.

Results

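The H2 genes are the mouse major histocompatibility complex on chromosome 17. They comprise the 41 rows whose symbol begins with H2- among the 33114 named genes of each library: 29 class I rows, 10 class II rows and the 2 neighbouring genes H2-Ke2 and H2-Ke6. RNA-seq of polyadenylated RNA was made from flow-sorted thymocytes of Rag1-/- mice, with 1 library from each of C57BL/6 (B6) at week 4, B6 at week 7, NOD at week 4 and NOD at week 6.5. All 4 groups lack Rag1, which is needed to assemble antigen receptor genes, so their thymocytes are held before the double positive stage. NOD is an inbred strain prone to autoimmune diabetes and, on the Rag1-/- background, to thymic leukaemia. The labels give neither the sort markers nor the number of animals behind a library.

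Classical class I molecules, encoded by H2-K1 and H2-D1, sit on nearly all nucleated cells and show peptides from inside the cell to CD8 T cells and to inhibitory receptors of natural killer cells. The Q, T and M regions hold further class I genes, many of them near-copies of each other, with narrower expression and specialised ligands. Class II molecules, encoded by the A and E genes, are made mainly by antigen-presenting cells, and the DM and O genes encode proteins that control their peptide loading. NOD carries the H2g7 haplotype and B6 the H2b haplotype, and the reads of both were placed on the C57BL/6 sequence.

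Depth recovered from the value steps was between 17060000 and 24090000 reads, of which between 21377 and 33912 fell on H2 rows. RPKM below is the deposited value, reads scaled by the length of the gene model and the depth of the library. Double negative thymocyte markers were high in all libraries, with Il2ra at RPKM 422.4 to 531.1 and Cd3e at 193.7 to 319.7, while Cd8a stayed at 0.16 or less. The B6 week 7 library had lower values overall: its median log2 ratio to B6 week 4 was -0.38 over 8582 genes, and the locus LOC672857 took 2.09% of its depth, against 0.80% to 1.05% elsewhere. Median scaling, which removes this shift, changed no limma call among the H2 genes.

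Because a 32-base read can fit several H2 genes, the sequence that members share decides how far their values can be told apart. In the GENCODE M21 transcripts of GRCm38, 38 of the 41 members had a transcript, and each was cut into all windows of 32 bases. For H2-T10, 54.1% of the windows were also found in H2-T22, whereas for H2-T3 only 5.90% were found in any other gene. The coding sequences of H2-T10 and H2-T22 were 98.3% identical over 640 aligned bases, with a longest identical run of 134. The first pair of lines below is the most alike 60-base stretch of their coding exons and the second pair the least alike. Capitals mark bases that differ between the paired lines. A read from the first stretch fits both genes.
H2-T10, exon 2, GRCm38 chr17:36121069-36121128, minus strand: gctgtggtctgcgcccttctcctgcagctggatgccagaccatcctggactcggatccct
H2-T22, exon 1, GRCm38 chr17:36042346-36042405, minus strand: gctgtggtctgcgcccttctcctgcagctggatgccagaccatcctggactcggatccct
H2-T10, exon 4, GRCm38 chr17:36120234-36120293, minus strand: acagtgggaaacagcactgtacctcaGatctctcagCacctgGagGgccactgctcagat
H2-T22, exon 3, GRCm38 chr17:36041498-36041557, minus strand: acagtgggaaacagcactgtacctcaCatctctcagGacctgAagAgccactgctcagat

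The classical genes H2-K1 and H2-D1 were 91.5% identical over 1078 aligned coding bases, and 16.2% of the windows of H2-K1 were found in H2-D1. Their most alike stretch and their least alike stretch both lie in exon 3, so reads of that exon include both unassignable and assignable ones. The lines below show them in the same way.
H2-K1, exon 3, GRCm38 chr17:33999397-33999456, minus strand: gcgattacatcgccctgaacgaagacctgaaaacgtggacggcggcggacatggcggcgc
H2-D1, exon 3, GRCm38 chr17:35263929-35263988, plus strand: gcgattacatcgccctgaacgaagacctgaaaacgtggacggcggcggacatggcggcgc
H2-K1, exon 3, GRCm38 chr17:33999330-33999389, minus strand: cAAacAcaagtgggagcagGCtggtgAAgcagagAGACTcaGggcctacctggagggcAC
H2-D1, exon 3, GRCm38 chr17:35263996-35264055, plus strand: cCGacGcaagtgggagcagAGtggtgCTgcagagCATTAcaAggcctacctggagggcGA

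H2-T3 stood apart from this pattern. Its coding sequence was 69.8% identical to that of H2-T22 over 1002 aligned bases, and the least alike stretch, shown because reads from it separate the genes, held 30 differences in 60 bases. H2-Q7 and H2-Q6 were 93.5% identical over 933 bases with an identical run of 265, so a read from that run fits both.
H2-T3, exon 2, GRCm38 chr17:36189646-36189705, minus strand: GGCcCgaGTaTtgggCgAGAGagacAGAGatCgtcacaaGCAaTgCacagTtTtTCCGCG
H2-T22, exon 2, GRCm38 chr17:36041913-36041972, minus strand: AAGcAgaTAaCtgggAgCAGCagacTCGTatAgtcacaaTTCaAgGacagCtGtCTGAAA

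**Figure D1:**
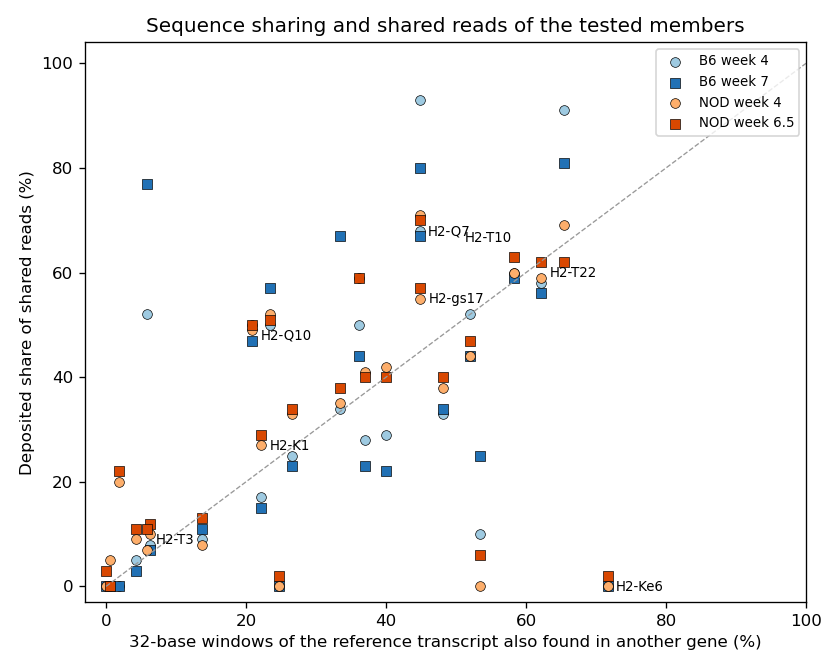
Share of the 32-base windows of each tested member's reference transcript found in another gene (x axis, percent) against the deposited share of reads that map to more than 1 place (y axis, percent), with 1 point per member and library and the line of equality dashed. H2-T10 and H2-T22 lie near 60% on both axes and H2-T3 near 6% of windows. H2-Ke6 lies at 71.7% of windows, all found in the gene model Gm20427, with shared reads of 0% to 2%.

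The deposited share of shared reads followed the windows loosely. Over the 25 members with RPKM of 1 or more in 2 libraries and a transcript, Pearson's r between the measures was 0.45 to 0.54 in the 4 libraries, and Spearman's rho 0.47 to 0.54. This is a description across genes, which share libraries and sequences and are not replicates. For H2-Ke6, 71.7% of windows were found in 1 other gene model, Gm20427, while 0% to 2% of its reads were shared. For H2-Oa and H2-Pa, 24.7% and 53.5% of windows were found in BC051537, against at most 2% and 25% shared reads. The reason for these gaps was not tested. The unshared level given below is RPKM multiplied by 1 minus the deposited share.

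The sum of RPKM times length over all H2 rows overlapped between the strains, while its make-up differed. In RPM (RPKM times length, which scales reads to library depth), all 41 rows together held 1288 and 1005 in B6 at weeks 4 and 7, against 1259 and 1408 in NOD at weeks 4 and 6.5. H2-K1 and H2-D1 together held 76.5% and 70.7% of this sum in the B6 libraries, and 26.8% and 24.1% in the NOD libraries. The 5 T rows with H2-Bl and the 2 gs rows held 10.02% and 10.3% in B6 and 60.8% and 64.4% in NOD. Both strains therefore put most H2 reads on class I genes, classical ones in B6 and T-region ones in NOD. With unshared reads only, the total over the 29 class I rows was 884 and 684 in B6 against 716 and 806 in NOD, so the strains overlapped.

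**Figure D2:**
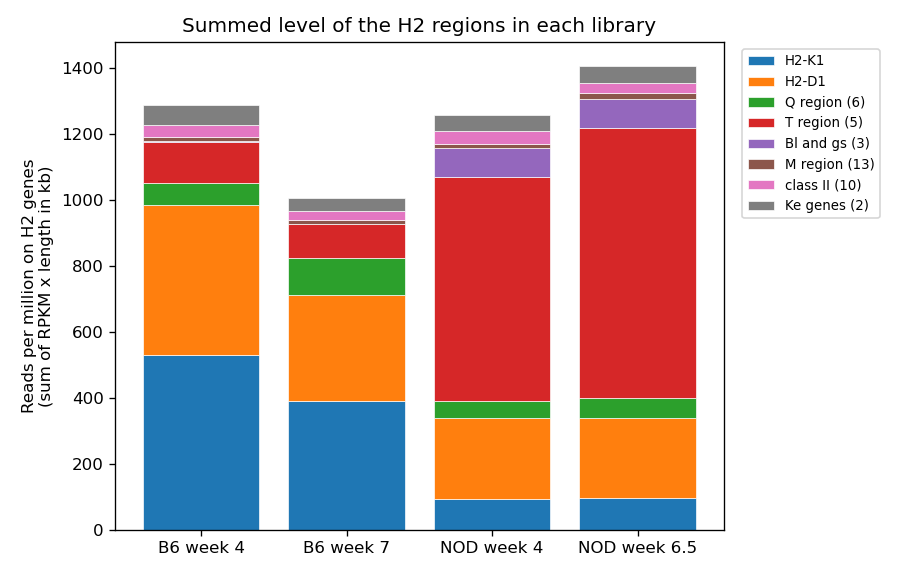
Stacked bars of the summed RPM on H2 genes (y axis, RPKM times length in kb) in each library, split into H2-K1, H2-D1, the other regions and the number of rows in each. The red T-region part is 127 and 101 in the B6 libraries and 680 and 819 in the NOD libraries, and the blue H2-K1 part 528 and 389 against 92.4 and 95.3.

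The strain comparison asked which H2 genes had other levels in NOD than in B6, where each strain had 2 libraries of unequal age. Over all 41 members without any filter, 18 (43.9%) had both NOD values above both B6 values, against 15.4% of all genes, and 8 (19.5%) had both below, against 10.8%. The remaining 15 overlapped or were tied, 7 of them listed at 0 in all libraries. The limma test was open to the 26 members with RPKM of 1 or more in 2 libraries, and 12 rose and 4 fell in NOD at an adjusted p under 0.05, where 2.78% and 1.59% of 12413 genes were called. Of these 12, 9 passed the filter only through their NOD values: H2-T3, H2-Bl, H2-gs14-2, H2-gs17, H2-Q1, H2-Q2, H2-Q10, H2-Pa and H2-M6-ps. They had to differ, which means that their count adds nothing to their single values. The same holds for H2-Ab1, 1 of the 4 that fell, which passed only through B6. The other 10 tested members were not called. The limma p-values set the strain difference against the spread between the 2 libraries of a strain, which differ in age, moderated over all genes tested. Fewer cells of a type and less RNA per cell cannot be told apart in bulk RNA. Without the filter, over 33114 genes, 4 of the 12 higher and 0 of the 4 lower members were called in limma, where 135 genes were called higher and 75 lower. At an unadjusted p under 0.05 there were 17 of the 41 members and 3010 of all genes. The 4 members called without the filter were H2-T3, H2-Bl, H2-T10 and H2-gs17.

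**Figure D3:**
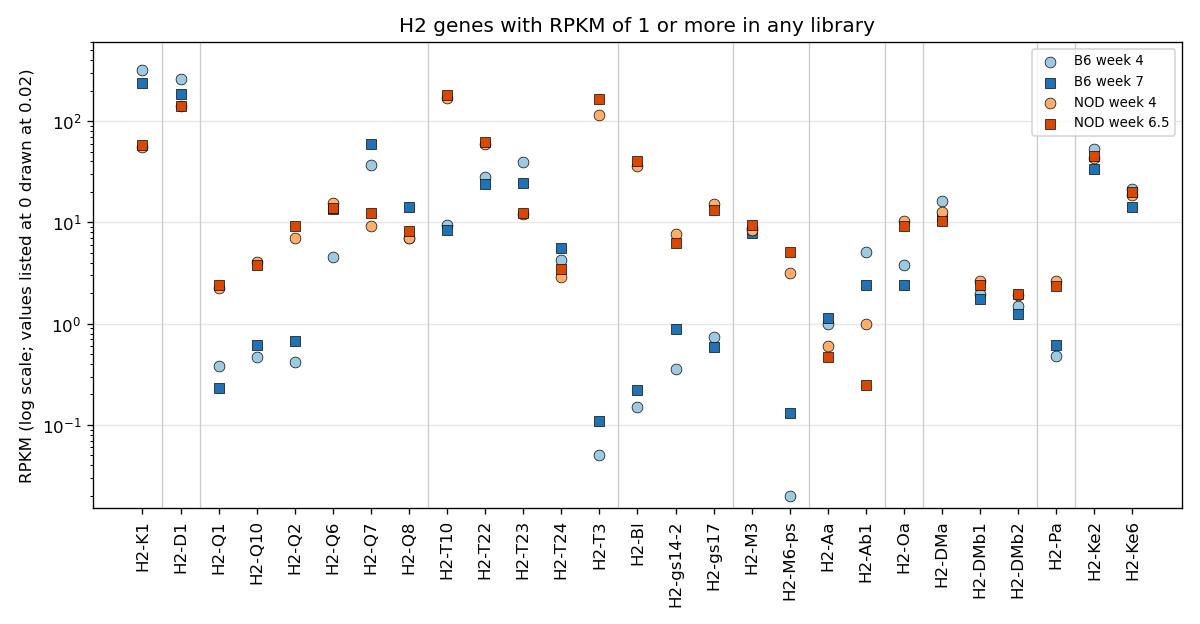
RPKM (y axis, log scale) of the 27 members with RPKM of 1 or more in any library, grouped by region, with 1 point per library, values listed at 0 drawn at 0.02 and no error bars because each strain and age had 1 library. The orange NOD points of H2-T3 lie at 114.4 and 165.5 and its blue B6 points at 0.05 and 0.11, while those of H2-Ke6 lie between 14.2 and 21.6.

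H2-T3 encodes the thymus leukaemia antigen, a class I molecule that does not present peptide and binds the CD8 alpha homodimer. Its RPKM was 0.05 at week 4 and 0.11 at week 7 in B6, against 114.4 at week 4 and 165.5 at week 6.5 in NOD, which are 2, 5, 4301 and 8685 reads. Both NOD libraries were far above both B6 libraries. The deposited share of shared reads was 7% and 11% in NOD, so the unshared RPKM there was 106.4 and 147.3. The high shares of 52% and 77% in B6 rest on those 2 and 5 reads. At week 4 the ratio of NOD to B6 was 2288 (95% counting interval 588 to 17557) and at the later ages 1505 (657 to 4722). The unshared RPKM in B6 was 0.024 and 0.025, and by unshared reads these ratios were 4434 and 5823, so their size and order are not fixed by so few B6 reads. The limma log2 difference was 7.005 with an SE of 0.24 and an adjusted p of 5.98e-05. H2-T3 entered that test only through NOD and so had to differ.

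H2-T10 and H2-T22 encode near-identical class I-like molecules that are recognised by some gamma-delta T cells. RefSeq lists the B6 copy of H2-T10 as a transcribed pseudogene. The RPKM of H2-T10 was 9.41 and 8.37 in B6 against 169.6 and 181.1 in NOD, and that of H2-T22 was 28.1 and 23.7 in B6 against 59.9 and 62.9 in NOD. For both genes the NOD libraries lay above the B6 libraries and the ages of a strain close together. Shared reads made up 59% to 63% for H2-T10 and 56% to 62% for H2-T22. The unshared RPKM of H2-T10 was 3.76 and 3.43 in B6 against 67.8 and 67.0 in NOD, and that of H2-T22 was 11.8 and 10.4 against 24.6 and 23.9. In limma the log2 difference was 4.16 (SE 0.22, adjusted p = 0.000137) for H2-T10 and 1.22 (SE 0.23, adjusted p = 0.0275) for H2-T22. H2-T22 was not called without either NOD library, with adjusted p of 0.310 without NOD week 4 and 0.404 without NOD week 6.5.

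The other T-region genes had lower values in NOD. H2-T23 encodes Qa-1, which shows leader peptides of other class I molecules to the CD94 and NKG2 receptors. Its RPKM was 39.3 and 24.6 in B6 against 12.1 and 12.5 in NOD, lower in both NOD libraries, with 33% to 40% shared reads. The log2 difference in limma was -1.28 (SE 0.27, adjusted p = 0.0447), with adjusted p of 0.249 without NOD week 4 and 0.212 without NOD week 6.5. H2-T24 was at 4.22 and 5.55 in B6 against 2.87 and 3.50 in NOD, with 7% to 12% shared reads and a log2 difference of -0.49 that was not called (limma adjusted p = 0.399). The sum of the 5 T rows was 127 and 101 RPM in B6 against 680 and 819 in NOD, of which shared reads were 44.5%, 43.6%, 39.4% and 39.0%.

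H2-Bl, H2-gs17 (Gm8909) and H2-gs14-2 (Gm6034) carry no region letter but lie among the T genes in the RefSeq order. The RPKM of H2-Bl was 0.15 and 0.22 in B6 against 36.1 and 40.5 in NOD, with 50% to 57% shared reads. H2-gs17 was at 0.74 and 0.59 in B6 against 15.3 and 13.2 in NOD, where 55% and 57% were shared, and H2-gs14-2 at 0.36 and 0.89 against 7.66 and 6.28, where 69% and 62% were shared. All 3 were higher in both NOD libraries, also by unshared RPKM, which for H2-Bl was 0.075 and 0.095 in B6 against 17.3 and 19.9 in NOD. Their limma log2 differences were 5.05, 3.19 and 2.31, with adjusted p of 7.89e-05, 0.000273 and 0.00165. All 3 entered that test only through NOD and so had to differ, and H2-gs14-2 was not called without the filter. Summed, these 3 rows held 1.70 and 2.49 RPM in B6 against 85.6 and 87.4 in NOD, with 86.6% and 77.5% shared reads in B6 and 55.1% and 53.4% in NOD.

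In the RefSeq order of the 39 members placed on chromosome 17, the 6 consecutive members from H2-T22 to H2-T3 were all called higher in NOD: H2-T22, H2-gs14-2, H2-Bl, H2-T10, H2-gs17 and H2-T3. Of these, H2-gs14-2, H2-Bl, H2-gs17 and H2-T3 passed the filter only through NOD and so had to differ. The members just before them, H2-T24 and H2-T23, had negative differences, and the M10 genes just after them were near 0 in all libraries. Elsewhere in the order, H2-Q7 and H2-Q10 were neighbouring called members of opposite direction, but H2-Q10 passed the filter only through NOD and so could only be higher. The order, which lacks H2-Q8, was taken from GRCm38.p6 and describes the B6 chromosome.

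**Figure D4:**
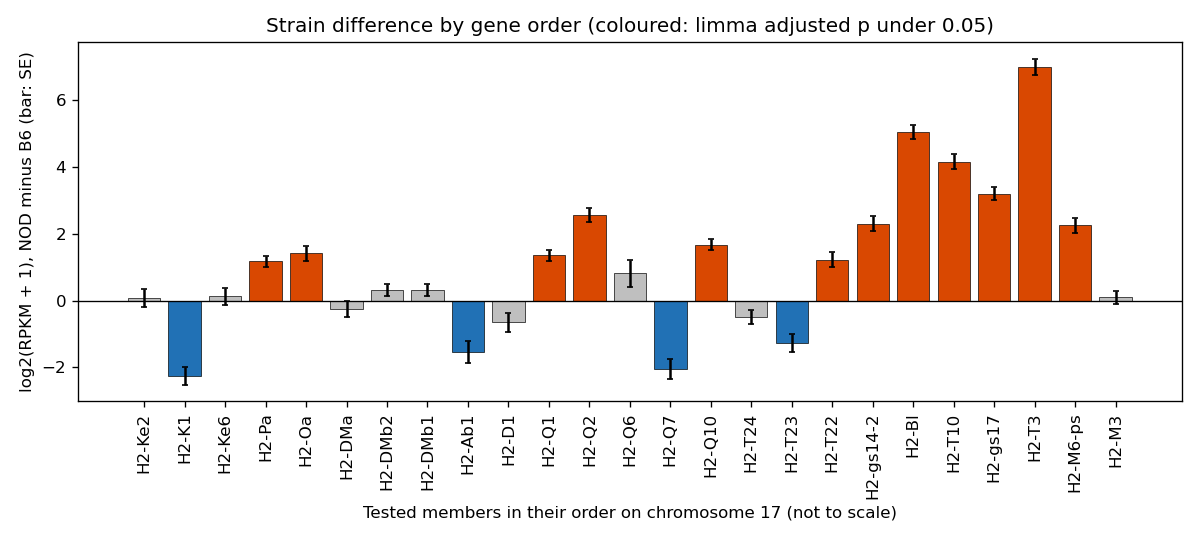
Limma log2 difference of NOD minus B6 on log2(RPKM + 1) (y axis, error bars SE, 2 libraries per strain) of the tested members in their order on chromosome 17 (x axis, not to scale); coloured bars had an adjusted p under 0.05. The members from H2-T22 to H2-T3 form 6 orange bars from 1.22 to 7.005, and H2-K1, H2-Ab1, H2-Q7 and H2-T23 are the blue bars below 0.

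The classical class I gene H2-K1 was at RPKM 321.0 and 236.5 in B6 against 56.1 and 57.9 in NOD. Both NOD libraries were lower than both B6 libraries, and the mean level was 4.89-fold higher in B6. The limma log2 difference was -2.25 (SE 0.27, adjusted p = 0.00373). Shared reads were 17% and 15% in B6 and 27% and 29% in NOD, and the unshared RPKM was 266.4 and 201.0 against 41.0 and 41.1. The other classical gene, H2-D1, was at RPKM 263.5 and 185.4 in B6 against 141.1 and 140.4 in NOD, again lower in both NOD libraries. Its log2 difference of -0.65 (SE 0.28) did not pass the limma test (adjusted p = 0.403), and of the alternatives run it was called only without B6 week 7 (-0.90, adjusted p = 0.0250). NOD is known to carry a K gene of d type and a D gene of b type, so the K reads come from another allele than the reference and the D reads from the same type. Whether this affected the levels of either gene was not tested.

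Promoter sequence was searched for 4 motifs on both strands of the 250 bases before the start. The kappa B site of the class I enhancer A was found in 4 of 22 class I genes with a RefSeq promoter, H2-K1, H2-D1, H2-Q6 and H2-Q7, and in 0.0852% of 32851 promoters. The core of the interferon-stimulated response element was found in H2-T22, H2-T23 and H2-gs14-2, the last of which lies head to head with H2-T22 so that their windows overlap, and in 2.98% of all promoters. CCAAT, the CCAAT box, was found in 20 of the 22 genes and 33.8% of all promoters, and TGACG, the core of the cyclic AMP response element, in 11 and 17.8%. None of these 4 motifs was found in H2-T3, which says only that these letters are not in this window. The lines below are RefSeq sequence of GRCm38.p6, which is B6 and not NOD, with matches to the 4 motifs in capitals. They show H2-K1, the called member with the most negative difference, its classical partner H2-D1, and the T genes H2-T22 and H2-T3. H2-T10 had no promoter among those searched. A match is no evidence of binding.
H2-K1, GRCm38.p6 chr17:34000334-34000583, minus strand: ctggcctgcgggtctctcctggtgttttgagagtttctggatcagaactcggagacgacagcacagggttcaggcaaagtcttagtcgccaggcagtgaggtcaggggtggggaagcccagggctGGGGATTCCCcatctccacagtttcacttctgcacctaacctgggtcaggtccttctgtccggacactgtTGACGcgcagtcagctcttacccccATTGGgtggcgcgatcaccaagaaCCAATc
H2-D1, GRCm38.p6 chr17:35262844-35263093, plus strand: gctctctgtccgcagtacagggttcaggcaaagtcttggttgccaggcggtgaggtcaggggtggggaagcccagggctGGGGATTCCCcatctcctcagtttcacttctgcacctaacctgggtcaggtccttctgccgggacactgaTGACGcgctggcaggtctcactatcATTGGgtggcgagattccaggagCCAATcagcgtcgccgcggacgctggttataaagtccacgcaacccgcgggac
H2-T22, GRCm38.p6 chr17:36042743-36042992, minus strand: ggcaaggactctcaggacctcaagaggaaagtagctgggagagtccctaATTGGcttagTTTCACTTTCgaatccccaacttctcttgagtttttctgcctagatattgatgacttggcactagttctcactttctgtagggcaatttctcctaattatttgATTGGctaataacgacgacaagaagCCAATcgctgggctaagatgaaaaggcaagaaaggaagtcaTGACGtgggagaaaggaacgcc
H2-T3, GRCm38.p6 chr17:36190152-36190401, minus strand: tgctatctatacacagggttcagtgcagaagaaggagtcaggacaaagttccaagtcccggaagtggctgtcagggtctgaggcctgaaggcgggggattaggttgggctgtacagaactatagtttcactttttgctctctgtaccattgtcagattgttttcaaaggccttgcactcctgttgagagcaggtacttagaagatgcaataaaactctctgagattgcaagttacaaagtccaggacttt

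The Q genes split by copy. H2-Q7 encodes the lipid-anchored Qa-2 antigen, and H2-Q6 and H2-Q8 are its close relatives. The RPKM of H2-Q7 was 36.9 and 60.2 in B6 against 9.13 and 12.4 in NOD, lower in both NOD libraries, also by unshared RPKM of 11.8 and 19.9 against 2.65 and 3.73. Shared reads were 67% to 71%, and it had a limma log2 difference of -2.04 (SE 0.30, adjusted p = 0.00930). H2-Q6 was at 4.60 and 13.5 in B6 against 15.7 and 13.9 in NOD, above both B6 values in both NOD libraries by a narrow margin, with 44% to 52% shared reads. By unshared RPKM the strains overlapped, at 2.21 and 7.55 in B6 against 8.80 and 7.38 in NOD. It had a log2 difference of 0.81 that was not called (adjusted p = 0.494). It was called without B6 week 7 (1.495, adjusted p = 0.0138) and with age as a block (0.81, adjusted p = 0.0273). H2-Q8 was at 7.03 and 14.2 in B6 against 6.95 and 8.31 in NOD, so the strains overlapped, and 94% to 100% of its reads were shared. Its difference was called without B6 week 4 (-0.82, adjusted p = 0.0282). With 32-base reads these copies cannot be separated well, and the directions of H2-Q6 and H2-Q8 are uncertain.

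H2-Q1, H2-Q2 and H2-Q10, the last encoding a secreted class I molecule of the liver, were low in B6 and higher in NOD. H2-Q2 was at RPKM 0.42 and 0.68 in B6 against 7.01 and 9.30 in NOD, H2-Q10 at 0.47 and 0.61 against 4.05 and 3.80, and H2-Q1 at 0.38 and 0.23 against 2.27 and 2.39. Their log2 differences of 2.56, 1.68 and 1.35 passed the limma test with adjusted p of 0.000754, 0.00198 and 0.00438. All of them entered that test only through NOD and so had to differ, and none was called without the filter. Between 34% and 67% of their reads were shared. The sum over the 6 Q rows was 64.3 and 113 RPM in B6 against 53.8 and 60.4 in NOD, with shared reads of 60.6% to 69.5%. By unshared reads it was 19.6 and 36.0 against 21.2 and 21.97, so the strains overlapped although single members differed.

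Of the 13 M rows, 11 stayed below RPKM 1, with a highest value of 0.87, and 6 were listed at 0 in all libraries. H2-M3, which presents formylated bacterial peptides, was at RPKM 8.77 and 7.86 in B6 against 8.37 and 9.50 in NOD, with 3% to 11% shared reads. Its values overlapped, and its log2 difference was 0.09 (SE 0.20, limma adjusted p = 0.882). The pseudogene H2-M6-ps was listed at 0 and at 0.13 in B6 and at 3.18 and 5.12 in NOD, on 0, 1, 20 and 45 reads with at most 22% shared. Its log2 difference was 2.25 (SE 0.22, limma adjusted p = 0.00172). H2-M6-ps entered that test only through NOD and so had to differ, and was not called without the filter. The M sum was 12.5 and 11.5 RPM in B6 against 14.5 and 17.2 in NOD, with shared reads of 2.93% to 12.5%.

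Class II genes were low, and here too the members went different ways. H2-Ab1, the beta chain of I-A, was at RPKM 5.16 and 2.41 in B6 against 0.99 and 0.25 in NOD, on 103, 60, 20 and 7 reads with at most 5% shared, and was lower in both NOD libraries. Its limma log2 difference of -1.54 (SE 0.33, adjusted p = 0.0474) was not called with a pseudocount of 0.1 (-2.56, adjusted p = 0.0683) or without B6 week 4 (-1.11, adjusted p = 0.0548). H2-Ab1 entered that test only through B6 and so had to differ, and was not called without the filter. Its partner H2-Aa, the alpha chain, was at 0.99 and 1.14 in B6 against 0.60 and 0.47 in NOD and did not pass the filter. The A sum was 7.11 and 4.04 RPM in B6 against 1.80 and 0.80 in NOD. H2-Eb1, the beta chain of I-E, was at 0.42 to 0.74, and H2-Ea was listed at 0 in all libraries. The E sum was 0.70 to 1.24 RPM.

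H2-Oa, the alpha chain of H2-O, an inhibitor of peptide exchange, was at RPKM 3.82 and 2.41 in B6 against 10.4 and 9.18 in NOD, with at most 2% shared reads. It was higher in both NOD libraries, by a limma log2 difference of 1.41 (SE 0.23, adjusted p = 0.0166). The beta chain H2-Ob had lower values in NOD at a low level, at 0.64 and 0.77 in B6 and 0.42 in both NOD libraries, and did not pass the filter. The O sum was 5.51 and 4.46 RPM in B6 against 11.5 and 10.3 in NOD. The neighbouring pseudogene H2-Pa was at RPKM 0.48 and 0.61 in B6 against 2.62 and 2.34 in NOD with 0% to 25% shared reads (log2 difference 1.17, limma adjusted p = 0.00905). H2-Pa entered that test only through NOD and so had to differ, and was not called without the filter. H2-DMa, the alpha chain of the peptide exchange catalyst, was at 16.2 and 11.6 in B6 against 12.5 and 10.2 in NOD, and its values overlapped. H2-DMb1 was at 1.96 and 1.76 in B6 against 2.66 and 2.42 in NOD, and H2-DMb2 at 1.48 and 1.25 against 1.94 and 1.95. Both were higher in both NOD libraries, by a narrower margin in unshared RPKM, and carried 22% to 42% shared reads. None of the 3 DM genes was called. The DM sum was 22.5 and 16.8 RPM in B6 against 19.9 and 17.1 in NOD, with 5.30% to 15.4% shared reads.

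Markers of antigen-presenting cells were few in these libraries. The B-cell markers Ms4a1 and Pax5 were listed at 0 throughout, and the dendritic marker Itgax was at RPKM 0.25 or less. The B-cell marker Cd79b was at RPKM 27.0 to 37.4 in B6 and 23.8 to 28.7 in NOD. Of the 10 dendritic and myeloid markers 2 reached RPKM 1, Cst3 and Lyzs (Lyz2), and the list summed to 65.9 to 91.5 in B6 and 65.3 to 71.5 in NOD. For the 9 epithelial and stromal markers 3 did, Tacstd1 (Epcam), Pdgfrb and Aire, with sums of 33.1 to 50.8 and 20.98 to 30.4 and Foxn1 at 0. Within each strain Cd79b and both lists, like H2-Ab1, were lower in the later library, and their part in its level was not tested. This was not particular to them: the double negative thymocyte list summed to 1713 and then 1181 in B6, and to 1849 and then 1678 in NOD. In the stromal list, Pdgfrb went the other way in NOD, from 1.22 to 6.33. Innate lymphoid markers summed to 46.9 to 58.8 in B6 and 33.3 to 35.7 in NOD, nearly all of it Nkg7. The other markers of that list were at 0.79 or less. Of them, Klrb1c, Tbx21, Zbtb16 and Eomes had higher values in NOD, Ncr1 had lower values, and Klrk1 overlapped. Erythroid markers summed to 40.4 and 42.9 at week 4 against 11.3 and 5.84 later. The class II partner Cd74 was at 1.12 to 2.46 and C2ta (Ciita), the class II transactivator, at 0.13 to 0.25.

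H2-Ke2 (Pfdn6), a prefoldin subunit, and H2-Ke6 (Hsd17b8), a steroid dehydrogenase, lie beside H2-K1 but are not histocompatibility molecules. H2-Ke2 was at RPKM 52.9 and 33.6 in B6 against 43.5 and 45.2 in NOD, and H2-Ke6 at 21.6 and 14.2 against 18.6 and 19.8. For both the strains overlapped, with limma adjusted p of 0.937 and 0.875. Their sum was 59.8 and 38.6 RPM in B6 against 50.1 and 52.7 in NOD, with 4.63% to 8.30% shared reads.

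The 50 listed genes were of peptide loading, class I-like molecules, class II partners, regulators and receptors. In limma 29 of them were tested, 0 rose and 0 fell, and 5 had an unadjusted p under 0.05, as had 1574 of the 12413 genes tested. The regulator Nlrc5 was also on the list but was not found among the named genes, so these counts do not cover it. B2m and Tap2 were chosen here after their values were seen. B2m, the light chain of class I molecules, was at RPKM 1319 and 1461 in B6 against 545.1 and 612.2 in NOD (log2 difference -1.26, limma adjusted p = 0.0748). Tap2, a subunit of the peptide transporter, was at 132.0 and 89.8 in B6 against 247.0 and 196.5 in NOD (log2 difference 1.01, limma adjusted p = 0.164).

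The single-age comparisons share no library with each other and set 1 library against 1, so they have no replicate check. At week 4, 9 of the 19 members that reached RPKM 5 in one of the libraries were 2-fold higher in NOD on the log2(RPKM + 1) scale, where 2.23% of 8863 genes were, and 4 were 2-fold lower, where 2.04% were. Between NOD week 6.5 and B6 week 7, 9 of 20 were higher, where 5.91% of 8634 genes were, and 2 were lower, where 1.61% were. At both ages 8 members were 2-fold higher, namely H2-T3, H2-T10, H2-T22, H2-Bl, H2-gs17, H2-gs14-2, H2-Q2 and H2-Oa, and H2-K1 and H2-Q7 were 2-fold lower. At week 4, H2-T23 was also 2-fold lower, at 0.308 of its B6 level, and 0.506 at the later ages, and H2-Q6 was 3.42-fold higher, against 1.03-fold later. H2-Ab1 was counted as lower at week 4 and H2-M6-ps as higher later, and each was under RPKM 5 in the other pair and so not counted there. Whether these ratios differed between ages was not tested. Of the 8 members higher at both ages, H2-T3, H2-Bl, H2-gs17, H2-gs14-2, H2-Q2 and H2-Oa reached RPKM 5 only through NOD. The same held for H2-Q6 at week 4 and H2-M6-ps later, and H2-Ab1 reached it at week 4 only through B6. Such entry favours a difference, so the counts of these members add nothing to their single values.

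The age comparisons asked whether H2 levels differed between week 4 and the later week of a strain, on 1 library each. In NOD, 0 of 19 members that reached RPKM 5 were 2-fold different, where 0.682% of 8646 genes were higher and 0.139% lower. Of the 3 members above RPKM 100, H2-T3 had the largest ratio, 1.45 (95% counting interval 1.39 to 1.501), and by unshared reads 1.38. Among lower members, H2-M6-ps was at 1.61 (0.933 to 2.88) on 20 and 45 reads, H2-Q7 at 1.36 (1.15 to 1.62) and H2-Q2 at 1.33 (1.07 to 1.65). In the other direction, H2-DMa was at 0.816 (0.683 to 0.973) and H2-gs14-2 at 0.820 (0.680 to 0.988). H2-K1 was at 1.03 (0.967 to 1.10), H2-D1 at 0.995 (0.957 to 1.04) and H2-T10 at 1.07 (1.03 to 1.11). H2-Ab1, under RPKM 5 in NOD and so not counted, was 3.96-fold lower at week 6.5 by plain RPKM (1.62 to 11.2), on 20 and 7 reads.

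In B6, 1 of 14 members was 2-fold higher at week 7 on the log2(RPKM + 1) scale, where 0.14% of 8582 genes were, and 0 were 2-fold lower, where 3.82% were. That member was H2-Q6, at 13.5 against 4.60 (2.93-fold, 95% counting interval 2.27 to 3.82), and the related H2-Q8 and H2-Q7 were 2.02-fold (1.66 to 2.47) and 1.63-fold (1.503 to 1.77) higher. By plain RPKM H2-Ab1 was 2.14-fold lower at week 7 (1.54 to 2.99), which the log2(RPKM + 1) scale does not count. H2-K1 was at 0.737 (0.715 to 0.759) and H2-D1 at 0.704 (0.681 to 0.727) of its week 4 level. The median of the 14 members was -0.34 on the log2 scale, close to the -0.38 of all genes in this pair of libraries. With median scaling 3 members were 2-fold higher. The Q sum went from 64.3 to 113 RPM, or from 19.6 to 36.0 by unshared reads, and in NOD from 53.8 to 60.4.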

How the data were processed

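The authors deposited, per the file headers, an RPKM value, a gene length in kilobases and the fraction of reads that map to more than 1 place for each gene and library. Bowtie 0.12.1 and mm9 are the aligner and build named, per the submitters' processing notes. No source used here gives the counting program or the rule for dividing shared reads. Reads of NOD alleles were placed on C57BL/6 sequence, so reads with many differences can be lost and reads of one copy can be placed on another. The protocol names no strand-specific step.

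Files hold no counts. Depth was recovered as the value at which genes of at most 0.6 kb with RPKM times length under 0.5 best gave whole reads. Between 98.7% and 100% of these values lay within 0.1 of a whole read, where chance gives 20% for a depth fixed in advance. The depth was fitted to these same values, so the shares describe that fit. Counting intervals are 95% exact intervals from that depth and cover counting error only. Region sums add RPKM times length.

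NOD was set against B6 on log2(RPKM + 1) by the two-sided moderated test of limma 3.58.1 (R 4.3.3) with an intensity trend. Genes entered when 2 or more libraries reached RPKM 1, and p-values were adjusted over all of these by Benjamini-Hochberg at 0.05. Fold changes on this scale understate the change of low genes. The test was checked on simulated data. Alternatives were a pseudocount of 0.1, no filter, median scaling, quantile normalization, unshared reads only, age class as a block and each library left out.

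Every member with a call, or with RPKM of 5 or more in any library, is named, and other members are given by region. The members and lists were chosen with earlier results of these data known. Sequences come from GENCODE M21 transcripts and RefSeq promoters of GRCm38.p6, and 40 members matched RefSeq by Entrez identifier. The sum of the B-cell marker list and 1 of its genes are not reported here.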

Additional observations from a re-analysis of the deposited data

Results flagged for a closer look

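H2-gs14-2 (Gm6034) was the only member with RPKM of 5 or more in any library whose ages went opposite ways in the strains, each beyond counting error. Its RPKM went from 0.36 to 0.89 in B6, on 10 and 31 reads, and from 7.66 to 6.28 in NOD, on 216 and 247 reads. On the log2(RPKM + 1) scale the age change in NOD minus that in B6 was -0.73, and this difference was not tested. By unshared reads the NOD values were 2.37 and 2.39, and shared reads were 91% and 81% in B6 and 69% and 62% in NOD.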

How the results depend on the processing

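Of the 16 members called in limma, all 16 were called with median scaling, quantile normalization, unshared reads only, age class as a block and without B6 week 7, 15 with a pseudocount of 0.1 and without B6 week 4, 14 without either NOD library, and 4 without the filter, where 4 members were higher and 0 lower. Over all genes, the 345 higher and 197 lower became 135 and 75 without the filter and 665 and 340 with the age block. Leaving out 1 library, where the lone library of a strain is assumed to vary like the other strain, gave 264 to 2919 higher, and 146 to 452 lower, the most of each without B6 week 4.

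Members never called with all libraries changed sign in a few settings. H2-Ke2 was at -0.012 with median scaling and at -0.25 to 0.39 without 1 library, H2-Ke6 at -0.16 to 0.40 and H2-Q8 at -0.82 to 0.099 without 1 library, and H2-M3 at -0.031 with quantile normalization. The cause was not tested. Among region sums, unshared reads gave log2 ratios of NOD to B6 of -0.043 for all class I rows and -0.034 for all members, where all reads gave 0.23 and 0.22. They gave 6.65 for the Bl and gs rows, 2.44 for H2-Pa, -1.56 for K and D together and 2.36 for the other class I rows. In B6, 2 members were 2-fold higher and 1 lower at week 7 with a pseudocount of 0.1, and 3 higher with median scaling. With 2 to 5 reads, the B6 levels of H2-T3 limit its ratio. The labels give no replicate numbers, so libraries were paired by age class, in the age block.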

Other observations

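The files list 6 further genes under older names whose current RefSeq symbol begins with H2-, and which the choice by symbol leaves out. C920025E04Rik (H2-T-ps), a T-region gene between H2-Bl and H2-T10, was at RPKM 2.64 and 1.83 in B6 against 25.8 and 27.9 in NOD, with 38% to 51% shared reads. EG630499 (H2-K2), a transcribed pseudogene in RefSeq, was at 1.65 and 1.58 in B6 against 7.54 and 6.80 in NOD, with 34% to 59% shared reads. Both were higher in both NOD libraries. EG625285 (H2-Q3) was at 2.34 to 3.24 with overlapping strains and 82% to 97% shared reads, and the other 3 genes stayed at 0.60 or less.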
